A study of Rattus norvegicus with 6 samples.

Results

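Ribosomal protein genes of the cytosolic ribosome were examined in donor hearts of a rat model of heterotopic heart transplantation. They were taken by name from the deposited gene expression table, as every symbol that starts with Rpl or Rps followed by a number, together with Rpsa, Rplp0, Rplp1 and Rplp2, and without the Rps6k kinases. The rule found 98 of the 22250 rows of the table, which carry 88 symbols. By its name the rule also caught Rps19bp1, a binding protein of Rps19 and not a ribosomal protein, which held 401 to 1113 of the 231674 to 786472 reads of the set per heart. The study asked which proteins matter in aged donor hearts. Left ventricular myocardium was taken on postoperative day 1 from 3 young donor hearts (10 weeks, animals 3, 13 and 15) and 3 aged donor hearts (1 year, animals 3, 4 and 7), all from male Sprague-Dawley rats of the WT genotype. Each of the 6 hearts had been stored cold and grafted into a young recipient rat, so the series holds no heart that was not transplanted, and blood cells of the recipient can be present in the tissue. Animals were numbered separately in each group, and young animal 3 and aged animal 3 were not the same rat.

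Ribosomal proteins coat the ribosomal RNAs of the large subunit (names in Rpl) and the small subunit (names in Rps), and cells make them in nearly equal numbers. The acidic proteins Rplp0, Rplp1 and Rplp2 form the stalk that recruits elongation factors. The mRNAs of these genes are known for a terminal oligopyrimidine tract, a run of C and T directly at the 5′ end, through which mTORC1 and LARP1 adjust their translation together. Several ribosomal proteins have a tissue-restricted paralog, and in striated muscle Rpl3l takes the place of Rpl3, a protein next to the peptidyl transferase centre.

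The start sites show the shared sequence feature and its exceptions. RefSeq promoters of the GRCr8 build were matched by symbol for 67 of the 88 symbols. For Rpl9, Rpl35a, Rpl37, Rpl38, Rpl39 and Rps13 the promoter lies on another chromosome than the expression row. These matches describe the symbol and not the row, and all of them had a run as counted next. A run of at least 8 C and T letters that touched the 30 bases around the annotated start, on the gene's own strand, was found in 49 of the 67 (73.13%), against 3659 of 21851 protein-coding promoters (16.75%). Among core subunits the share was 45 of 58 (77.59%), and among paralogs and other variant names it was 4 of 9 (44.44%). The windows below run from 15 bases before the start, and capitals mark the longest C and T run in or entering the window. The first 4 belong to core genes with a clear run and cover a stalk protein, a large subunit protein and a pair of small subunit proteins, and the last 3 belong to genes whose levels are compared as paralogs below.
Rplp1, chr8:71290858-71290887, minus strand: gcaggcgcatgtgaTCCTTTCCTCagctgc
Rpl10, chrX:157205835-157205864, plus strand: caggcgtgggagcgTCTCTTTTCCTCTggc
Rps15, chr7:10068101-10068130, minus strand: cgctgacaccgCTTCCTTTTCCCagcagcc
Rps27, chr2:177964592-177964621, minus strand: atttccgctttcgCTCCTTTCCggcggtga
Rpl3, chr7:113507976-113508005, minus strand: ccagcgcctgctcgaTCTCTatcggcggcg
Rpl3l, chr10:14258431-14258460, plus strand: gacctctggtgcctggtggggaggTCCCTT
Rps27l, chr8:76443643-76443672, plus strand: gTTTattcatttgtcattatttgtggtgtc
The longest run was 13 letters in Rpl10, 12 in Rps15, 10 in Rplp1 and 9 in Rps27. In Rpl3 the run at the start had 5 letters and was not counted, in Rps27l the longest run in the window had 3 letters and lay before the start, and in Rpl3l a run of 9 letters lay at the far end of the window and went on past it. The letters CTTTCC, searched on both strands over the 300 bases of each promoter and overlapping the C and T runs in part, were present in 33 of the 67 (49.25%) and in 26.33% of all protein-coding promoters. These matches describe letters around an annotated start, and no RNA 5′ end was measured here.

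Reads counted on genes ran from 21457509 to 24560869 per heart. Transcripts of the mitochondrial genome (13 genes) accounted for 11.9% to 21.7% of them in the young group and 6.57% to 10.3% in the aged group, so shares are given of the remaining counts and CPM values are scaled by TMM, with factors from 0.733 to 1.24. A count of 3 reads, the floor used here, is worth 0.0985 to 0.191 CPM. Summed CPM of a cardiomyocyte marker list ran from 618 to 8268 in aged donor hearts and was 100510, 110570 and 13397 in young animals 3, 13 and 15, and 5 of its 10 tested genes were past the limits used below and lower. Summed neutrophil and macrophage markers were 18.4 to 164 and 341 to 2438 CPM in young donor hearts and 432 to 1635 and 3833 to 7420 CPM in aged donor hearts, with young animal 15 the highest young heart in both lists. Of 10 genes tested in each, 9 neutrophil and 4 macrophage genes were past those limits and higher. Over all genes the shares were 13.2% higher and 19% lower. Summed T cell markers were 29.3 to 80.5 CPM in young and 96.2 to 145 CPM in aged donor hearts. Summed fibroblast markers were 6250 to 7806 CPM in young and 2019 to 4144 CPM in aged donor hearts. Endothelial and red cell sums overlapped between the groups. In these bulk samples, a change in the share of a cell type and a change in RNA per cell cannot be told apart. Young animal 15 stands apart from the other young donor hearts in the results that follow, and the main ones are given with and without it.

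Ribosomal protein mRNAs took a larger share of the reads in each aged donor heart than in any young one. Summed over the 98 rows they made up 1.56%, 1.38% and 2.98% of non-mitochondrial reads in young animals 3, 13 and 15, and 3.28%, 3.66% and 3.25% in aged animals 3, 4 and 7. The group values were 1.97% ± 0.880 (SD, n = 3) in young and 3.40% ± 0.230 (SD, n = 3) in aged donor hearts, a ratio of 1.72. The groups did not overlap, and young animal 15 lay closer to the aged donor hearts than to the other young ones. A two-sided exact permutation test gave p = 0.1, the smallest value that 3 hearts against 3 allow. Without young animal 15 the ratio was 2.32, and with shares of the summed FPKM (reads per length) it was 1.69. The balance between the subunits was nearly constant: large subunit rows took 57.6% ± 0.235 (SD, n = 3) of the ribosomal protein reads in young and 57.1% ± 0.385 (SD, n = 3) in aged donor hearts (exact permutation test, two-sided, p = 0.2).

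Per gene, this appeared as a modest positive difference spread over nearly the whole set. Of the 98 rows, 89 passed the filter on low counts, and 85 of them had a positive log2 fold change of aged over young donor hearts. The median log2 fold change was 0.51, against 0.02 over all 13784 genes tested, with 0.48 in 45 core large subunit rows, 0.53 in 31 core small subunit rows and 0.55 in 13 variant names. The limits of the study were used, which ask for more than 1.5 times or less than 0.67 times the young level together with a p under 0.05. The study does not say whether that p was adjusted, and the unadjusted p was used here. Past these limits were 7 of the 89 (7.87%) in the higher direction and 1 in the lower, where all genes tested gave 13.2% and 19%. Scaling by library totals in place of TMM gave 24 higher and 1 lower, and moved the split over all genes from 1815 higher and 2621 lower to 3147 and 1440. The count of individually higher genes was below the background under TMM. By unadjusted p alone, 10 of the 89 passed 0.05, against 34.3% of all genes. No gene of the set had a Benjamini-Hochberg adjusted p under 0.05 in edgeR's quasi-likelihood test, nor did any gene of the table (0 of 13784), and the smallest adjusted p in the set was 0.0916. By other tools the numbers with an adjusted p under 0.05 were larger: DESeq2 gave 5 of the 89 and 3592 of all genes, and limma-voom 75 and 8417. The groups did not overlap, with the aged one higher, in 34 of the 89, where the share over all genes was 21%, and with the aged one lower in 0, where it was 20.7%.

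**Figure D1:**
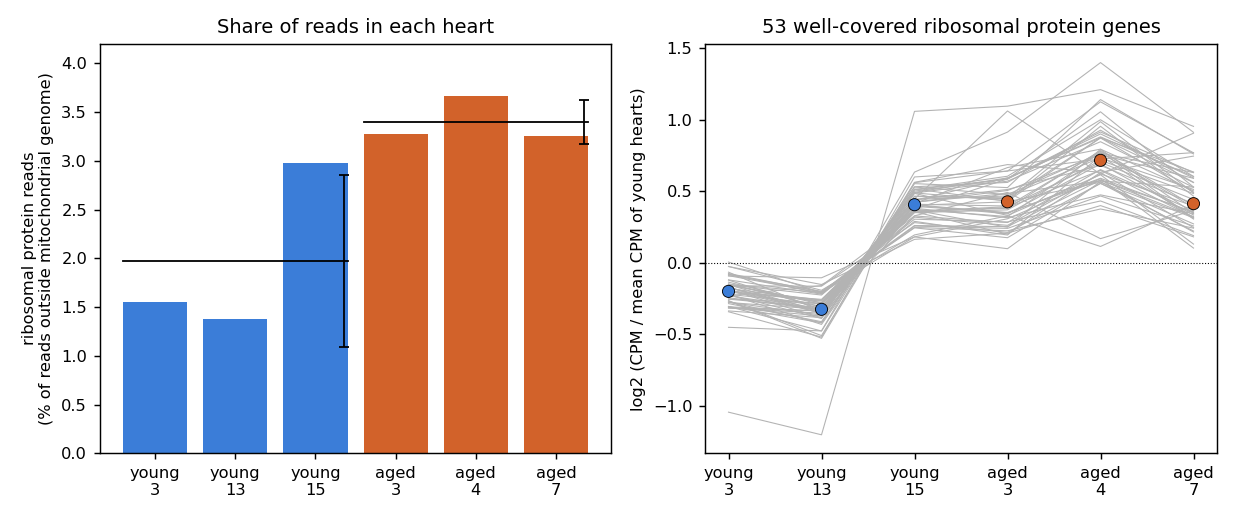
Left, bars give the percent of non-mitochondrial reads on the 98 ribosomal protein rows in each heart, with horizontal lines for the group means and error bars for 1 SD (n = 3). Right, each grey line is 1 of the 53 genes with at least 1000 reads in every heart, as log2 of its CPM over its mean in young donor hearts, and circles are medians per heart (blue young, orange aged); the median of young animal 15, 0.40, lies beside those of the aged donor hearts, 0.41 to 0.72.

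The 53 rows with at least 1000 reads in every heart, all core subunits, show the pattern with the least counting error. That depth was chosen after the values were seen. It also leaves out a gene that is low in any heart, such as Rpl3l, with 6154 reads in young animal 3 and 28 in aged animal 3. The log2 fold changes of the 53 were all positive, from 0.27 to 1.09, with a median of 0.53 and an SD between genes of 0.19. Of the 2393 other genes at that depth, 961 were positive, the median was -0.14 and the SD was 0.77, so the ribosomal proteins were far less spread than other well-covered genes. Past the limits and higher were 3 of the 53 (5.66%) and 139 of the 2393 (5.81%), nearly the same share. The aged group was higher without overlap in 21 of the 53 (39.6%) and in 333 of the others (13.9%). Relative to the mean of young donor hearts, the median log2 level of the 53 was -0.20, -0.33 and 0.40 in young animals 3, 13 and 15, and 0.42, 0.72 and 0.41 in aged animals 3, 4 and 7. The members move together over the same 6 libraries and are not independent measurements of donor age.

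The number of genes that passed depended on single hearts. Young animal 15 lay above both other young donor hearts in 81 of the 89 tested rows, and at or above the lowest aged donor heart in 55, against 8 for young animal 3 and 5 for young animal 13. Aged animal 4 was the highest of the 6 hearts in 70. When young animal 15 was left out, 61 of the 89 (68.5%) were past the limits and higher, against 26.9% of all genes, the median log2 fold change was 0.75, and the aged donor hearts lay above the remaining young ones in 82, against 37.8% of all genes. In that fit 58 of the 89 had an adjusted p under 0.05, as did 6815 genes in all. When young animal 3 or young animal 13 was left out, 1 of the 89 (1.12%) was past the limits and higher in each case. Over all genes the shares were 5.83% and 6.13%. Without aged animals 3, 4 and 7 the counts were 6, 3 and 3 (6.74%, 3.37% and 3.37%). The shares over all genes were then 7.47%, 9.97% and 8.79%. Leaving out aged animal 3 raised the rows without overlap to 54 of the 89, where the share over all genes was 24.7%. Of the 7 genes past the limits and higher, Rps4y2 stayed past them whichever heart was left out, and each of the others was no longer past them without young animal 3 and without young animal 13. The cardiomyocyte markers of young animal 15, given above, were also nearer to those of aged donor hearts, and their part in these results was not tested.

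**Figure D2:**
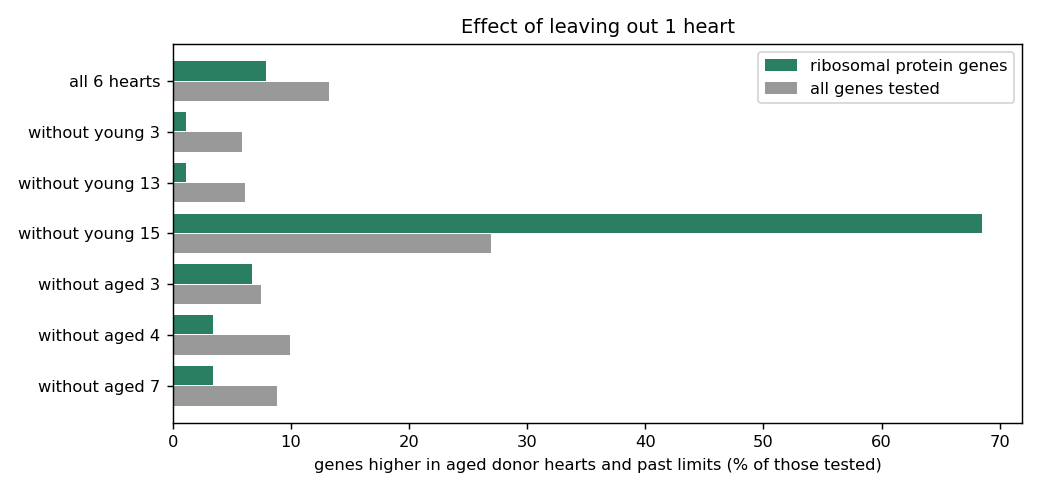
Bars give the percent of genes that were past the limits and higher in aged donor hearts, for ribosomal protein genes (green) and all genes tested (grey), with all 6 hearts and with each heart left out. Leaving out young animal 15 is the one case in which the green bar (68.5%) exceeds the grey one (26.9%).

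The tested stalk genes and the other most abundant members had positive log2 fold changes, from 0.37 to 0.70, on both sides of the set median (0.51). Rplp0, the base of the stalk and by mean FPKM the most abundant of the set (1436), had 973, 952 and 1554 CPM in young animals 3, 13 and 15, and 1645, 1957 and 1744 CPM in aged animals 3, 4 and 7. The groups did not overlap, and the log2 fold change was 0.62 (SE 0.36, adjusted p = 0.243), or 0.93 without young animal 15, where it was past the limits. Rplp1, its partner on the stalk, had 282, 272 and 422 CPM in the young group and 488, 607 and 491 CPM in the aged group, and was past the limits with a log2 fold change of 0.70 (SE 0.28, unadjusted p = 0.0436, adjusted p = 0.136). The groups of Rplp1 did not overlap either, and young animal 15 was nearest to the aged group. The call of Rplp1 held when that heart was left out (0.97) and was lost when any of the other 5 was, with values from 0.59 to 0.76. The Rplp2 row held at most 1 read in any heart, while the row LOC498555, described as similar to P2 and outside the name rule, held 797 to 2681 reads and had a log2 fold change of 0.61 (adjusted p = 0.108). Rpsa, the laminin receptor protein of the small subunit, and Rps2, near the mRNA entry channel, were next in abundance, with mean FPKM of 1117 and 1352. Rpsa had 717, 688 and 1163 CPM in the young group and 1183, 1423 and 1221 CPM in the aged group. Its log2 fold change was 0.57 (adjusted p = 0.255), and that of Rps2 was 0.70 (adjusted p = 0.203). Neither was past the limits, although the groups did not overlap in either gene, and both were past them without young animal 15 (0.90 and 1.07). Rpl10, a late-joining protein of the large subunit and the fifth by mean FPKM (916), had a log2 fold change of 0.37 (adjusted p = 0.394), and its young animal 15 (744 CPM) was above aged animals 3 and 7 (667 and 689 CPM).

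Among the other large subunit genes, Rpl17 was past the limits. Rpl17 lines the exit tunnel, and it had 145, 136 and 234 CPM in the young group and 358, 263 and 321 CPM in the aged group, with a log2 fold change of 0.87 (SE 0.29, unadjusted p = 0.0217, adjusted p = 0.104). The groups did not overlap, and the call was also lost without aged animal 3 (0.77) or aged animal 7 (0.86). On the same strand its row overlaps RGD1562987, so reads between these rows are uncertain. Rpl7l1, a relative of Rpl7 that acts in ribosome assembly rather than as a classical subunit, had 36.6, 35.1 and 55.7 CPM in the young group and 81.4, 68.0 and 67.5 CPM in the aged group. Its log2 fold change was 0.77 (SE 0.23, unadjusted p = 0.0149, adjusted p = 0.0956). Rpl7 itself had 381, 363 and 529 CPM in the young group and 508, 652 and 558 CPM in the aged group. Its log2 fold change was 0.43 (adjusted p = 0.277). By FPKM, the log2 ratio of Rpl7l1 to Rpl7 was -0.53 ± 0.074 (SD, n = 3) in young and -0.19 ± 0.31 (SD, n = 3) in aged donor hearts. The difference was 0.35 with overlapping groups (exact permutation test, two-sided, p = 0.2). FPKM divides by row lengths of 5151 bases for Rpl7 and 741 for Rpl7l1, so this ratio is far higher than by reads. Rpl35a had one of the largest fitted values, a log2 fold change of 1.22 (SE 0.76, adjusted p = 0.274), but its row held 0.423 to 3.90 CPM.

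In the small subunit, Rps12 had the largest difference among well-covered genes. Rps12, a protein of the beak, had 103, 102 and 219 CPM in young animals 3, 13 and 15, and 266, 373 and 266 CPM in aged animals 3, 4 and 7. Every aged donor heart exceeded every young one, and the log2 fold change was 1.09 (SE 0.37, unadjusted p = 0.0249, adjusted p = 0.109). It was 1.59 without young animal 15, and the call was also lost without aged animal 4 (0.92). As a share of all ribosomal protein reads it took 0.654%, 0.690% and 0.907% in the young group and 1.08%, 1.25% and 1.06% in the aged group. Rps27, which carries a zinc finger, was nearly level between the groups, with 74.2, 56.5 and 70.9 CPM in the young group and 70.6, 62.6 and 76.8 CPM in aged donor hearts. Its groups overlapped, and its log2 fold change was 0.06 (SE 0.18, adjusted p = 0.83). The Rps29 row was low (1.14 to 2.07 CPM, log2 fold change -0.25, adjusted p = 0.627), whereas LOC108352650, described as S29 and outside the rule, held 2138 to 4453 reads. Likewise the Rpl39 row held 0.544 to 1.72 CPM (log2 fold change 0.48, adjusted p = 0.468), and LOC103693375, described as L39, held 859 to 2924 reads.

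The remaining calls fell on rows with variant names or with a second row of the same symbol. Rps4y2, named as a Y-linked S4 gene but placed on chromosome 4 in the table and without an intron there, had the largest log2 fold change of the set, 1.53 (SE 0.41, unadjusted p = 0.00819, adjusted p = 0.0916). It had 10.1, 13.9 and 17.0 CPM in the young group and 25.2, 62.9 and 30.6 CPM in the aged group, so aged animal 4 stood well above the others. Without aged animal 4 the log2 fold change was 1.03 and the row stayed past the limits. The row overlaps Tmtc1 on the opposite strand. The Rps10 row on chromosome 6, a single block of 498 bases, was also past the limits, with a log2 fold change of 0.65 (adjusted p = 0.124) that was 0.39 without aged animal 4, while the Rps10 row on chromosome 20 with introns and more reads had 0.37 and was not. Rps19l2 on chromosome 1 had 45.5, 43.7 and 81.0 CPM in the young group and 88.6, 110 and 88.7 CPM in aged donor hearts (log2 fold change 0.76, adjusted p = 0.127), and this call held only when young animal 15 was the heart left out (1.14). In all, 21 of the 98 rows have no intron in the table, 17 of them were tested and 2 were past the limits and higher (11.8%, near the 13.2% of all genes), with a median log2 fold change of 0.46. The use of reads that match several rows is not given in the sources used here, so values of such copies are uncertain.

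**Figure D3:**
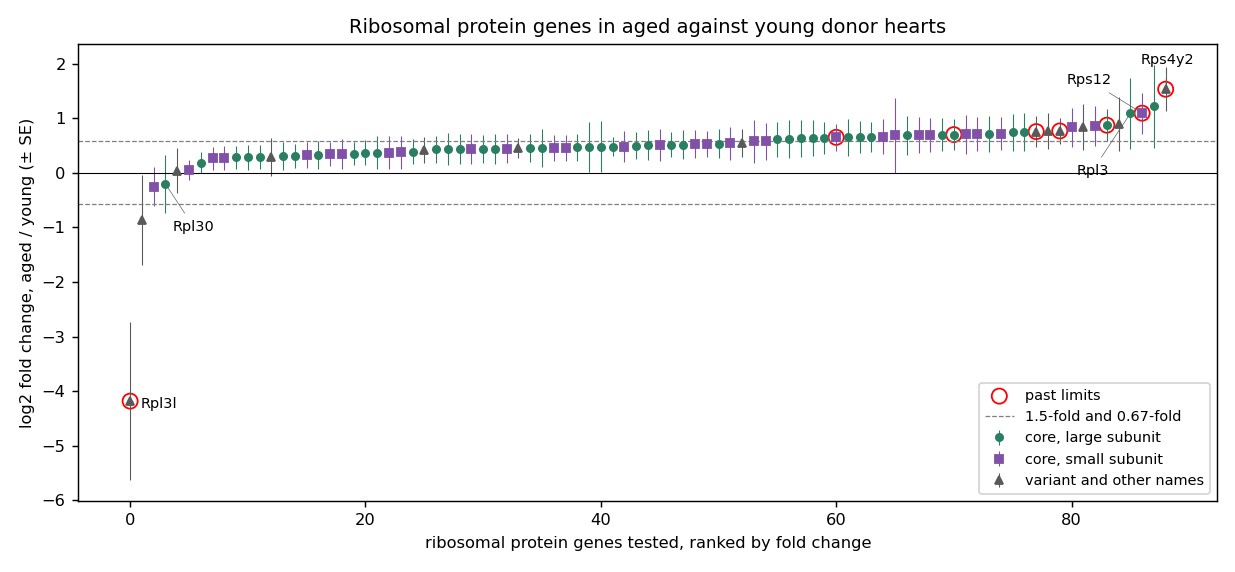
Each point is 1 of the 89 ribosomal protein rows tested, ranked by log2 fold change of aged over young donor hearts, with bars of 1 SE; symbols give the class, dashed lines the fold change limits, and red circles the 8 rows past the limits. Between 0 and the upper dashed line lie 51 points, above that line 34, and Rpl3l stands alone at -4.18.

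Reads of Rpl30 and of an L30-like row outside the rule were split differently in aged animal 4, and the cause was not tested. Rpl30, a large subunit protein that in yeast binds its own transcript, had 57.7, 58.3 and 124 CPM in the young group and 88.0, 27.96 and 92.4 CPM in aged donor hearts, and a log2 fold change of -0.20 (SE 0.53, adjusted p = 0.797), which turned positive without aged animal 4 (0.18), without young animal 15 (0.30), under library totals (0.16) and in limma-voom (0.12). Aged animal 4 was the lowest heart for Rpl30 although it was the highest for most other members. The row LOC100362027, described as L30-like, held 4551 reads in aged animal 4 and 695 to 1783 in the other hearts. Rpl30 had 738 reads in aged animal 4, and it took 13.9% of the reads of the pair there and 51.7% to 81.2% elsewhere. Summed, the pair had 111, 107 and 152 CPM in the young group and 146, 200 and 160 CPM in the aged group, with aged animal 4 again the highest.

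Rpl3l was the only member past the limits and lower. Rpl3l, the striated muscle form, had 372, 359 and 21.4 CPM in young animals 3, 13 and 15, and 0.919, 14.5 and 26.0 CPM in aged animals 3, 4 and 7. Young animals 3 and 13 were high, and young animal 15 was within the range of the aged donor hearts, so the groups overlapped. The log2 fold change was -4.18 (SE 1.45, unadjusted p = 0.0257, adjusted p = 0.111). Without young animal 15 it was -4.68, and the call was lost without young animal 3 (-3.78), young animal 13 (-3.83) or aged animal 4 (-4.21). Rpl3 ran the other way, with 195, 175 and 839 CPM in the young group and 860, 932 and 780 CPM in the aged group. Its young animal 15 was above aged animal 7, and its log2 fold change of 1.09 (SE 0.65, unadjusted p = 0.143, adjusted p = 0.259) was not past the limits. Without young animal 15 it was 2.25 and past the limits. The Rpl3 row overlaps Syngr1 on the opposite strand, which held far fewer reads.

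The pair was also compared per length, with row lengths of 1347 bases for Rpl3l and 3506 for Rpl3. Dividing by these lengths gives Rpl3l a larger share than reads do. In reads, Rpl3l held 6154 and 5649 in young animals 3 and 13, and Rpl3 held 3231 and 2755. By FPKM, Rpl3l made up 83.2% and 84.2% of the pair in young animals 3 and 13, but 6.23% in young animal 15. In aged animals 3, 4 and 7 it made up 0.277%, 3.90% and 7.97%. The log2 ratio of Rpl3l to Rpl3 averaged 0.27 ± 3.62 (SD, n = 3) in young and -5.55 ± 2.61 (SD, n = 3) in aged donor hearts. The difference of -5.82 was larger than either SD, but the groups overlapped (exact permutation test, two-sided, p = 0.2, where 3 hearts against 3 cannot go below 0.1), and young animal 15 fell among the aged donor hearts. Without it, 2 hearts against 3 gave -7.91 (exact permutation test, two-sided, p = 0.1). Taken within a library, this ratio does not depend on scaling, but its level depends on the row lengths. Rpl3 took 1.24%, 1.19% and 3.47% of all ribosomal protein reads in the young group and 3.48%, 3.13% and 3.10% in the aged group. In the table Rpl3l lies on chromosome 10, 4774 bases beyond the end of Rps2 on the same strand (Rnor_6.0, chr10:14094754-14105308 and chr10:14088319-14089979), with Ndufb10 between them, yet the log2 fold changes of these neighbours were -4.18 and 0.70. Cardiomyocyte marker sums were likewise highest in young animals 3 and 13 and lowest in aged animal 3, and their part in the Rpl3l values was not tested.

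**Figure D4:**
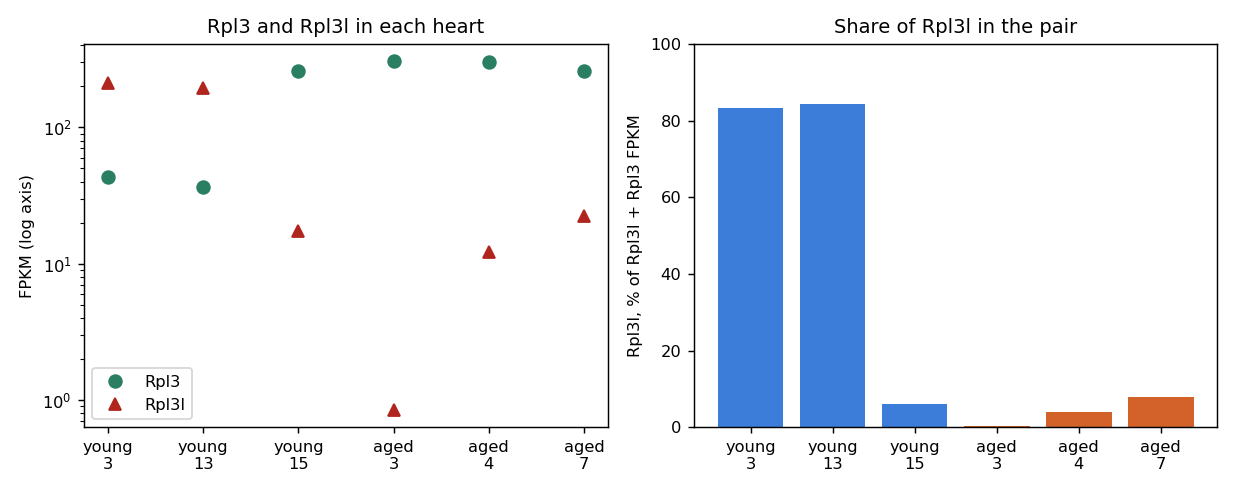
Left, FPKM of Rpl3 (circles) and Rpl3l (triangles) in each heart on a log axis. Right, bars give Rpl3l as a percent of the FPKM of the pair (blue young, orange aged). It was 83.2% and 84.2% in young animals 3 and 13 and at most 7.97% in the other hearts. FPKM divides reads by row lengths of 3506 bases for Rpl3 and 1347 for Rpl3l.

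In each of the other paralog pairs the ratios of the young and aged groups overlapped. Rps27l, a p53-responsive form of Rps27, was at a ratio of 0.0792, 0.106 and 0.275 to Rps27 by FPKM in young animals 3, 13 and 15, and 0.259, 0.305 and 0.269 in aged donor hearts (exact permutation test, two-sided, p = 0.3). On the log2 scale the ratio was 1.07 higher in the aged group, with SDs of 0.94 in young and 0.12 in aged donor hearts. Young animal 15 again lay within the aged range, and Rps27l itself had a log2 fold change of 0.89 (SE 0.49, adjusted p = 0.232), or 1.74 without young animal 15. Rpl36al stayed at 0.201 to 0.256 of Rpl36a in all 6 hearts (exact permutation test, two-sided, p = 0.5). Rpl10l, a form known from testis, was at most 0.0275 of Rpl10 (exact permutation test, two-sided, p = 0.6). Rpl22l1 had a log2 fold change of 0.42 (adjusted p = 0.248), and Rpl22 was not analysed here under its own symbol. Rpl39l had as few as 1 read and did not pass the filter on low counts, and Rps10l1 was near the floor (0.306 to 3.39 CPM, log2 fold change -0.87, adjusted p = 0.46). Over the 6 pairs compared, the Benjamini-Hochberg adjusted p of these exact permutation tests ran from 0.4 to 0.6.

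The rows that were not tested also belong to the set. They were Rpl10a, Rpl23a and Rpl30l1, with no read in any heart, and Rpl38, Rpl39l, Rplp2, Rps15al4, a Rpl21 row on chromosome 3 and a Rpl35al1 row. Of a list of 77 core subunit symbols, 73 were matched. Outside the rule, 97 further rows are described as ribosomal proteins in the table under locus names. Of these, 28 had no read, 38 were tested, 10 were past the limits and higher (26.3%, against 13.2% of all genes), 0 lower, and the median log2 fold change was 0.57. Together the 97 rows held 23026 to 68399 reads per heart. The 10 include LOC100362027, named with Rpl30 above, and LOC685963, which held 4 to 18 reads per heart. How far this count rests on single hearts was not tested.

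Other genes of translation had a smaller median difference. Of 67 tested genes from 7 lists covering ribosome constituents outside the rule, initiation, elongation and termination, other terminal oligopyrimidine mRNAs, regulators, rescue and ribosome chaperones, 6 were past the limits and higher (8.96%) and 1 lower (1.49%), both below the 13.2% and 19% of all genes, and the median log2 fold change was 0.29. Among 27 initiation genes, 3 were past the limits and higher: Pabpc1, which binds the poly(A) tail (log2 fold change 1.23, adjusted p = 0.136), Eif4a1, the RNA helicase of the cap complex (1.25, adjusted p = 0.134), and Eif6, which keeps the large subunit from joining early (0.96, adjusted p = 0.107). Pabpc1 had 259, 221 and 688 CPM in the young group and 1003, 834 and 910 CPM in the aged group. Among 11 elongation and termination genes, Eef1b2, the exchange factor of Eef1a, was past the limits and higher, with 67.4, 57.8 and 154 CPM in the young group and 166, 216 and 183 CPM in the aged group (log2 fold change 1.02, adjusted p = 0.136). Eef1a2, the muscle and nerve form of the elongation factor, was past the limits and lower, with 1080, 1160 and 428 CPM in the young group and 2.30, 150 and 93.6 CPM in aged donor hearts (log2 fold change -3.44, SE 1.29, adjusted p = 0.124). In Eef1a2 the groups did not overlap, and young animal 15 lay between them. Npm1, a nucleolar chaperone with a terminal oligopyrimidine mRNA, and Grwd1, a chaperone of Rpl3, were also past the limits and higher (log2 fold changes 1.14 and 0.96, adjusted p = 0.144 and 0.0921). None of 10 regulators, 4 rescue factors or 2 further ribosome constituents was past the limits in either direction. Without young animal 15, 28 of these genes were past the limits and higher, where 67 were tested with all 6 hearts. The share over all genes was then 26.9%. In these lists 1 gene was past the limits and higher without aged animal 7, young animal 3 or young animal 13. The shares over all genes were then 8.79%, 5.83% and 6.13%. Eef1a2 was no longer past the limits without young animal 3, young animal 13, aged animal 4 or aged animal 7 (-4.20 to -3.20).

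The members followed each other closely over the 6 hearts. The mean log2 CPM of the 76 tested members with at least 100 reads in every heart correlated with each of the 89 at a median Pearson r of 0.975, and 64 of the 89 were above 0.9. The lowest was Rpl3l, at -0.78. The points share 6 libraries and their scaling, and most members are part of the mean, so this is a description only. Genes outside the set with the most similar pattern were Erh, an mRNA splicing and mitosis factor (r = 0.999), Ddost, a subunit of the oligosaccharyltransferase (r = 0.999), Asb6 (r = 0.999), Cct4, a subunit of the cytosolic chaperonin (r = 0.999), and Bola2 (r = 0.998), over the same 6 hearts. Their log2 fold changes were 0.74, 0.60, 0.55, 0.69 and 1.09.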

How the data were processed

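The authors deposited 1 table with raw read counts per gene and FPKM values for each of the 6 hearts, from paired Illumina reads of poly(A)-selected RNA. The submitters' processing notes name HISAT2 2.0.5, StringTie 1.3.3b, featureCounts 1.5.0-p3, DESeq2 1.16.1 and the build Rnor_6.0, with no roles given. Strand use and treatment of multiply mapped reads are not given in the sources used here. The deposited counts were not normalized, and the deposited FPKM values divide them by gene length and library total. Row lengths within a paralog pair can differ. The level of an FPKM ratio depends on them, and its log2 difference between the groups does not.

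The main test was that of edgeR 4.0.16 in R 4.3.3 on the counts (filterByExpr, TMM, glmQLFit and glmQLFTest, 3 aged against 3 young hearts, no covariates), with DESeq2 1.42.0 and limma 3.58.1 as alternatives. Adjusted p-values are Benjamini-Hochberg values over all 13784 genes. SE is the log2 fold change over the square root of F. Single values were compared by two-sided exact permutation tests. The edgeR, DESeq2 and limma-voom tests were run on simulated counts with the same dispersion for every gene and no outlying heart. That simulation does not cover a heart such as young animal 15, and the permutation tests were not part of it. P-values set the difference between the groups against the variation among these hearts. The genes named are paralog pairs, stalk proteins and Rpsa, the 5 largest fold changes in each direction, the 5 highest mean FPKM, members past the limits and list genes past them. The members and lists were chosen with earlier results of these data known.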

Additional observations from a re-analysis of the deposited data

How the results depend on the processing

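Scaling by library totals moved the count of ribosomal protein genes past the limits and higher to 24 of the 89 (27%, against 22.8% of all genes). Their median log2 fold change moved to 0.89 while that of all genes moved to 0.46. Those without overlap rose to 67 of the 89, against 33.2% of all genes. The translation lists moved to 14 higher of 67 tested, beside the same 22.8% of all genes. DESeq2's Wald test gave 19 ribosomal protein genes higher (21.3% against 15.6% of all genes). It gave 2 of the 67 translation genes lower, where 2921 of all 13784 genes were lower. No filter beyond 1 count also gave 2 translation genes lower, where 2842 of 17586 genes were. It left 7 ribosomal protein genes higher (7.37% against 11.5% of all genes). With limma-voom and quality weights, 60 were higher (67.4% against 26.8% of all genes) and 2 lower. Of the 67 translation genes, 29 were then higher and 3 lower, where 3815 of all 13784 genes were lower. By limma-voom, 75 of the 89 had an adjusted p under 0.05. The cause was not tested. Leaving out each heart in turn gave 1 to 61 of the 89 higher and 0 to 1 lower, with 34 to 82 without overlap above and 0 to 2 below. Translation genes gave 1 to 28 higher and 0 to 2 lower. The median log2 fold change of the 89 ran from 0.38 to 0.75, and the ratio of read shares from 1.497 to 2.32. Over all genes the same fits gave 5.83% to 26.9% higher and 22% to 37.8% without overlap above. The highest counts came without young animal 15. DESeq2's size factors, library sizes without mitochondrial genes, a minimum of 10 counts, and summing rows of 1 symbol, chosen after seeing the data, left the count at 6 to 7. Among named genes, Rpl30 turned positive with library totals (0.16) and limma-voom (0.12) and ran from -0.46 to 0.30 when hearts were left out. Rps29 turned positive with library totals (0.22). Rpl10l turned negative with limma-voom (-0.13) and ran from -0.29 to 0.32 when hearts were left out, and Rps27 ran from -0.052 to 0.14. No paired analysis was possible because the groups share only replicate number 3, which marks different rats. With 3 hearts a group, a p-value that misses a threshold does not show that levels were alike, and rows near the floor of 3 reads carry little information.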
